A study of Mus musculus with 12 samples.

Results

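The 10 genes described here encode DNA methylation and Polycomb regulators: the DNA methyltransferases Dnmt1, Dnmt3a and Dnmt3b, the TET dioxygenases Tet1, Tet2 and Tet3, the Polycomb methyltransferases Ezh1 and Ezh2, the Polycomb subunit Bmi1 and the Polycomb-associated gene Asxl1. They were chosen by gene symbol, and all 10 were found among the 43279 genes of the expression table. All 10 were also among the 13358 genes tested, the genes reaching 10 normalised counts in 5 or more libraries. Poly(A) RNA was sequenced from hematopoietic stem and progenitor cells of adult, naive Osmr-/- mice, which lack the oncostatin M receptor, and of adult, naive WT mice of the strain C57BL/6. Each library was made from 1000 cells of a different mouse, sorted from femur, tibia and ilium marrow as LKS+ FLT3- CD48- cells (lineage-negative, KIT-positive, SCA1-positive), a gate that holds long-term and short-term stem cells. The labels give neither the strain background of the Osmr-/- mice nor a tissue-restricted deletion. There were 5 Osmr-/- libraries, numbered 1, 2, 3, 5 and 6, and 6 WT libraries. The Osmr-/- sample numbered 4 was not analysed here.

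Libraries held 9500968 to 11193108 reads in Osmr-/- and 9886151 to 22144976 reads in WT. Osmr itself had 4 reads over all Osmr-/- libraries and 13 reads over all WT libraries, too few to check the genotype labels. Transcripts of the gate were abundant: Kit averaged 4455 normalised counts in Osmr-/- and 3740 in WT, and Ly6a, which encodes SCA1, averaged 6893 in Osmr-/- and 5376 in WT. Of the excluded lineages, the T cell gene Cd3e had 0 reads in Osmr-/- and 4 in WT, and the granulocyte gene Ly6g had 0 reads in Osmr-/- and 1 in WT. Transcripts of the excluded surface proteins FLT3 and CD48 were present, with Flt3 at 389 ± 148 normalised counts in Osmr-/- and 504 ± 164 in WT (SD, n = 5 and 6). The lists of gate, excluded, megakaryocyte, granulocyte and monocyte, lymphoid and stromal markers held 0 genes past limma's or edgeR's test. At an unadjusted limma p under 0.05 they held 8 genes, where 18.0% of all genes tested reached it. These were 1 of 10 tested gate markers, 2 of 5 excluded and 1 of 7 megakaryocyte markers. The rest were 2 of 7 granulocyte and monocyte and 2 of 2 lymphoid markers, with 0 of 3 stromal markers. DESeq2 called Ptprc and Selp higher among them, where 1.51% of all genes were called higher. Ptprc, of the excluded list, was abundant in both genotypes, averaging 4722 normalised counts in Osmr-/- and 2969 in WT. Counts per gene do not separate its isoforms, so this call does not show cells of an excluded lineage. Libraries numbered 1 to 3 separate from those numbered 4 to 6 in earlier work on these values. The labels name no batch, so the number sets are defined from the data, and the fold changes of the regulators and named genes and the list medians were also computed within them. In these bulk samples, fewer cells of a type and less RNA per cell cannot be told apart.

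DNA methyltransferases place methyl groups on cytosines of CpG dinucleotides: Dnmt1 copies the pattern after replication, and Dnmt3a and Dnmt3b set it anew. The TET dioxygenases oxidise the methyl group, the first step of its removal. Polycomb repressive complex 2 (PRC2), with Ezh1 or Ezh2 as its catalytic subunit, methylates histone H3 at lysine 27, and Polycomb repressive complex 1 (PRC1), which holds Bmi1, ubiquitinates histone H2A. Bmi1 and Dnmt3a are known for their parts in stem cell self-renewal, and Dnmt3a, Tet2 and Asxl1 are often mutated in clonal hematopoiesis in humans.

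The promoters of Bmi1, Ezh2 and Ezh1 are shown because Bmi1 had the lowest p of the 10 genes and because Ezh1 and Ezh2 are alternative subunits of PRC2 whose levels varied differently between libraries. The sequences are RefSeq's on GRCm38.p6, with 250 bases before and 50 bases after the transcription start, on the strand of the gene. Capitals mark the motifs found: the E-box CACGTG in Bmi1 and the CCAAT box in Ezh2, which reads ATTGG where it lies on the opposite strand.
Bmi1, chr2:18676768-18677067 (+): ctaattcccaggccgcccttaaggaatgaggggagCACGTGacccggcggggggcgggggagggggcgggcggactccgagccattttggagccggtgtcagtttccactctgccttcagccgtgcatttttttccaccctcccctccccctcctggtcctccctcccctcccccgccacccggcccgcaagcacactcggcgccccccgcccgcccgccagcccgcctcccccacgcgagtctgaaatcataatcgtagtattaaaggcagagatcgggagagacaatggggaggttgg
Ezh2, chr6:47594981-47595280 (-): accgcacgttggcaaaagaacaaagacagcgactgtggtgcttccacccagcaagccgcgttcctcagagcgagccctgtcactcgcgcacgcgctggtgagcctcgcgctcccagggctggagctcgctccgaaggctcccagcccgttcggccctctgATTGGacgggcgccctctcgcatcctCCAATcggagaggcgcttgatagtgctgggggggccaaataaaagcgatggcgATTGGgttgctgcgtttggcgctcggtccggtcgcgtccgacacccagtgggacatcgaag
Ezh1, chr11:101226414-101226713 (-): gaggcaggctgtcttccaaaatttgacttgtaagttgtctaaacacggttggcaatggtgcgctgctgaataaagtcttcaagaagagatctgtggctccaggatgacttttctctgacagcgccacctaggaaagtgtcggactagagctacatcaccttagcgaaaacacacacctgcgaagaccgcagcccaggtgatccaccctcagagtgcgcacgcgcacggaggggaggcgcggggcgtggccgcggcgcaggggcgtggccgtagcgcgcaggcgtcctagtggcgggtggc

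RefSeq's table held 14 promoters of the 10 genes, with 3 each for Dnmt1 and Dnmt3a. Each was searched on both strands for the E-box CACGTG, the STAT motif TTCNNNGAA, the E2F motif GCGGGAA and the CCAAT box CCAAT, and no matches of different motifs overlapped, while a pair of CCAAT boxes in the most downstream Dnmt1 promoter share bases on opposite strands. Over all 32851 mouse promoters in that table, 7.15% held the E-box, 8.30% the STAT motif, 4.60% the E2F motif and 37.4% the CCAAT box. The E-box of Bmi1 began 215 bases before the start, and the 3 CCAAT boxes of Ezh2 began 90, 64 and 11 bases before it. CCAAT boxes were also found in the Dnmt1 and Tet3 promoters, an E-box in the most downstream Dnmt3a promoter and an E2F motif in the Asxl1 promoter. No STAT motif was found in the 14 windows, and the Ezh1 window held none of the 4 motifs. CpG counts per window ran from 2 in the most upstream Dnmt1 promoter to 57 in the Tet2 promoter, with 23 in Bmi1, 23 in Ezh1 and 31 in Ezh2, and the median over all promoters was 7.

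Comparing Osmr-/- with WT, 0 of the 10 genes passed limma's test on log2(normalised count + 1) at an adjusted p of 0.05 (Benjamini-Hochberg over all genes tested), a test that 0.0225% of all genes passed. Bmi1 and Tet1 reached an unadjusted p under 0.05, 2 of 10 genes, against 18.0% of all genes tested. With edgeR's quasi-likelihood test on the recovered reads, 0 of 10 passed, against 0.0150% of all genes, and 1 reached an unadjusted p under 0.05, against 15.4% of all genes. Bmi1 alone passed in the authors' deposited table, where 1.67% of genes were called higher in Osmr-/-. DESeq2 on the recovered reads called Bmi1 as the 1 gene of 10, against 1.51% of all genes called higher. It repeats the authors' tool on the same counts, so it is not a separate test. Log2 fold changes were above 0 for 6 genes and below 0 for 4, with a median of 0.12. Over all genes tested 6254 were above 0 and 7104 below, with a median of -0.05. For none of the 10 genes were the genotypes fully separate, which was so for 2.52% of all genes tested. The values of each Osmr-/- library are given below by role, in the order of the library numbers, with the lowest, median and highest WT value.

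**Figure D1:**
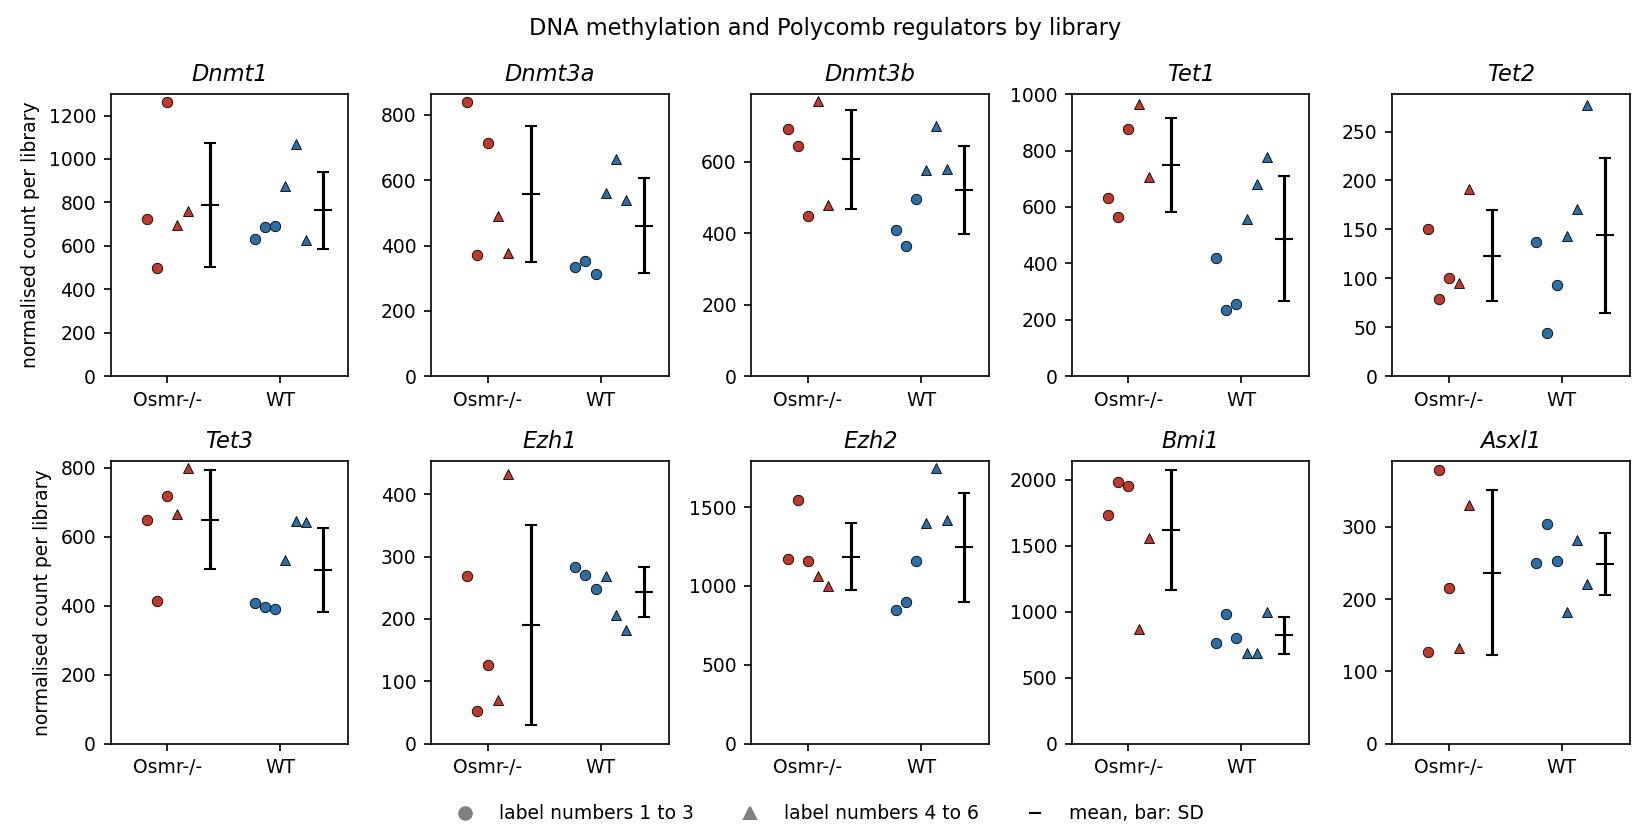
Normalised count per library (y axis, from 0) of each of the 10 regulators in Osmr-/- libraries (red, n = 5) and WT libraries (blue, n = 6). Circles are libraries numbered 1 to 3, triangles those numbered 4 to 6, and bars give the mean and SD. Bmi1 lay between 866 and 1979 in Osmr-/- and between 685 and 997 in WT, and the Ezh1 values spread more widely in Osmr-/- than in WT.

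Of the DNA methyltransferases, none passed the test between genotypes. Dnmt1 (chr9:20907209-20959888, minus strand), the maintenance enzyme, had 725, 498, 1263, 696 and 762 normalised counts in Osmr-/-, and a lowest, median and highest value of 624.7, 689 and 1069 in WT. Osmr-/- 3 held the highest and Osmr-/- 2 the lowest value of all libraries, on either side of the WT range. Osmr-/- 3 also had the highest sum of granulocyte and monocyte markers, 27691 normalised counts, against 10378 to 11445 in the other Osmr-/- libraries and 8900 to 17255 in WT, and the part of this in the Dnmt1 value was not tested. The means were 789 ± 284 in Osmr-/- and 763 ± 176 in WT (SD, n = 5 and 6), with a log2 fold change of 0.01 (SE 0.257, limma adjusted p 0.988).

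Dnmt3a (chr12:3806007-3914443, plus strand), a de novo methyltransferase, had 839, 371, 713, 491 and 378 normalised counts in Osmr-/-, and 313, 446 and 664 as the lowest, median and highest in WT. Osmr-/- 1 and 3 lay above every WT library and the other Osmr-/- libraries within the WT range. Dnmt3a averaged 558 ± 209 in Osmr-/- and 461 ± 146 in WT, with a log2 fold change of 0.26 (SE 0.304, limma adjusted p 0.691), and with values from 0.09 without Osmr-/- 1 to 0.39 without Osmr-/- 2 when single libraries were left out. Dnmt3b (chr2:153649450-153687730, plus strand), the second de novo enzyme, had 691, 646, 450, 771 and 480 normalised counts in Osmr-/-, and 364, 536 and 700 as the lowest, median and highest in WT. Only Osmr-/- 5 exceeded the WT range. Its log2 fold change was 0.22 (SE 0.251, limma adjusted p 0.670), and it was 0.13 without WT 2 and 0.13 without Osmr-/- 5.

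Among the TET dioxygenases, Tet1 and Tet3 had higher means in Osmr-/- and Tet2 did not, and none of these differences passed the test. Tet1 (chr10:62804570-62908996, minus strand) had 631, 564, 876, 966 and 707 normalised counts in Osmr-/-, and 235, 489 and 776 as the lowest, median and highest in WT. Every Osmr-/- library lay above the WT median, and 4 of 6 WT libraries lay below the lowest Osmr-/- library. Tet1 averaged 749 ± 168 in Osmr-/- and 488 ± 222 in WT, with a log2 fold change of 0.73 (SE 0.331, limma unadjusted p 0.0430, adjusted p 0.263). The authors' deposited table gives it an adjusted p of 0.317.

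Tet3 (chr6:83362373-83459084, minus strand) had 649, 415, 718, 666 and 799 normalised counts in Osmr-/-, and 390, 471 and 647 as the lowest, median and highest in WT. All Osmr-/- libraries but number 2 lay above the highest WT library, the nearest by a margin of a few counts. Its means were 649 ± 143 in Osmr-/- and 503 ± 122 in WT, with a log2 fold change of 0.37 (SE 0.253, limma adjusted p 0.461). Tet2 (chr3:133463679-133545139, minus strand) had 151, 79.2, 101, 94.7 and 191 normalised counts in Osmr-/-, and 43.7, 140 and 277 as the lowest, median and highest in WT. The Osmr-/- values lay within the WT range. The log2 fold change of Tet2 was -0.09 (SE 0.471, limma adjusted p 0.939).

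Of the catalytic subunits of PRC2, Ezh2 was the more abundant in both genotypes. Ezh1 was the more variable in Osmr-/- and Ezh2 in WT. Ezh2 (chr6:47530139-47595341, minus strand), the subunit linked to dividing cells, had 1170, 1542, 1157, 1061 and 998 normalised counts in Osmr-/-, and 846, 1279 and 1747 as the lowest, median and highest in WT. The Osmr-/- values lay inside the WT range. Ezh2 averaged 1186 ± 211 in Osmr-/- and 1245 ± 344 in WT, with a log2 fold change of -0.04 (SE 0.231, limma adjusted p 0.948). Its coefficient of variation was 17.8% in Osmr-/- and 27.6% in WT.

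Ezh1 (chr11:101191115-101226463, minus strand), the subunit linked to resting cells, had 268, 52.0, 126, 70.0 and 433 normalised counts in Osmr-/-, and 182, 259 and 283 as the lowest, median and highest in WT. Osmr-/- 2, 3 and 5 lay below every WT library and Osmr-/- 6 above every WT library. Its coefficient of variation was 84.4% in Osmr-/- and 16.6% in WT, a difference in spread that was not tested. The means were 190 ± 160 in Osmr-/- and 243 ± 40.3 in WT, and the log2 fold change was -0.77 (SE 0.487, limma adjusted p 0.420). That value depends on the method, since edgeR gave -0.35 and the authors' deposited table -0.28, and on single libraries, with -0.42 without Osmr-/- 2 and -1.18 without Osmr-/- 6. Per kilobase of exon, the ratio of Ezh1 to Ezh2 ran from 0.0303 to 0.390 with a median of 0.098 in Osmr-/-, and from 0.106 to 0.300 with a median of 0.183 in WT.

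Bmi1 (chr2:18677018-18686629, plus strand), a PRC1 subunit that represses the Cdkn2a locus in stem cells, was the gene with the lowest p of the 10. It had 1730, 1979, 1954, 866 and 1559 normalised counts in Osmr-/-, and 685, 782 and 997 as the lowest, median and highest in WT. Of the Osmr-/- libraries, 4 of 5 lay above every WT library, and Osmr-/- 5 lay within the WT range. Bmi1 averaged 1618 ± 454 in Osmr-/- and 819 ± 140 in WT, a 1.92-fold difference on the log2(value + 1) scale and a log2 fold change of 0.94 (SE 0.243). With limma this gave an unadjusted p of 0.0015 and an adjusted p of 0.104, above the threshold. The authors' deposited table gives a log2 fold change of 0.92 (SE 0.228) at an adjusted p of 0.0054, below the threshold.

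The call of Bmi1 thus depended on the method, while its direction did not differ among the 25 alternatives run. DESeq2 on the recovered reads gave 0.98 at an adjusted p of 0.0056, and edgeR gave 0.97 at an adjusted p of 0.0933. With the number sets as a covariate, limma gave 0.90 at an adjusted p of 0.0439, and Bmi1 was the 1 gene of 10 called higher, against 0.996% of all genes tested. Within numbers 1 to 3, Bmi1 had 1730 to 1979 normalised counts in Osmr-/- and 760 to 983 in WT. The genotypes did not overlap there, which was so for 29.0% of all genes tested. That difference was 1.16 on the log2 scale (limma adjusted p 0.0667). Within numbers 4 to 6 it was 0.58 (limma adjusted p 0.554), with Osmr-/- 5 at 866 and Osmr-/- 6 at 1559 against 685 to 997 in WT. The difference between the sets was -0.58 (numbers 4 to 6 minus 1 to 3, limma p 0.169, adjusted p 0.662). Leaving out each library in turn gave log2 fold changes of 0.85 to 1.15 at adjusted p of 0.0610 to 0.223, the largest difference being without Osmr-/- 5.

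**Figure D2:**
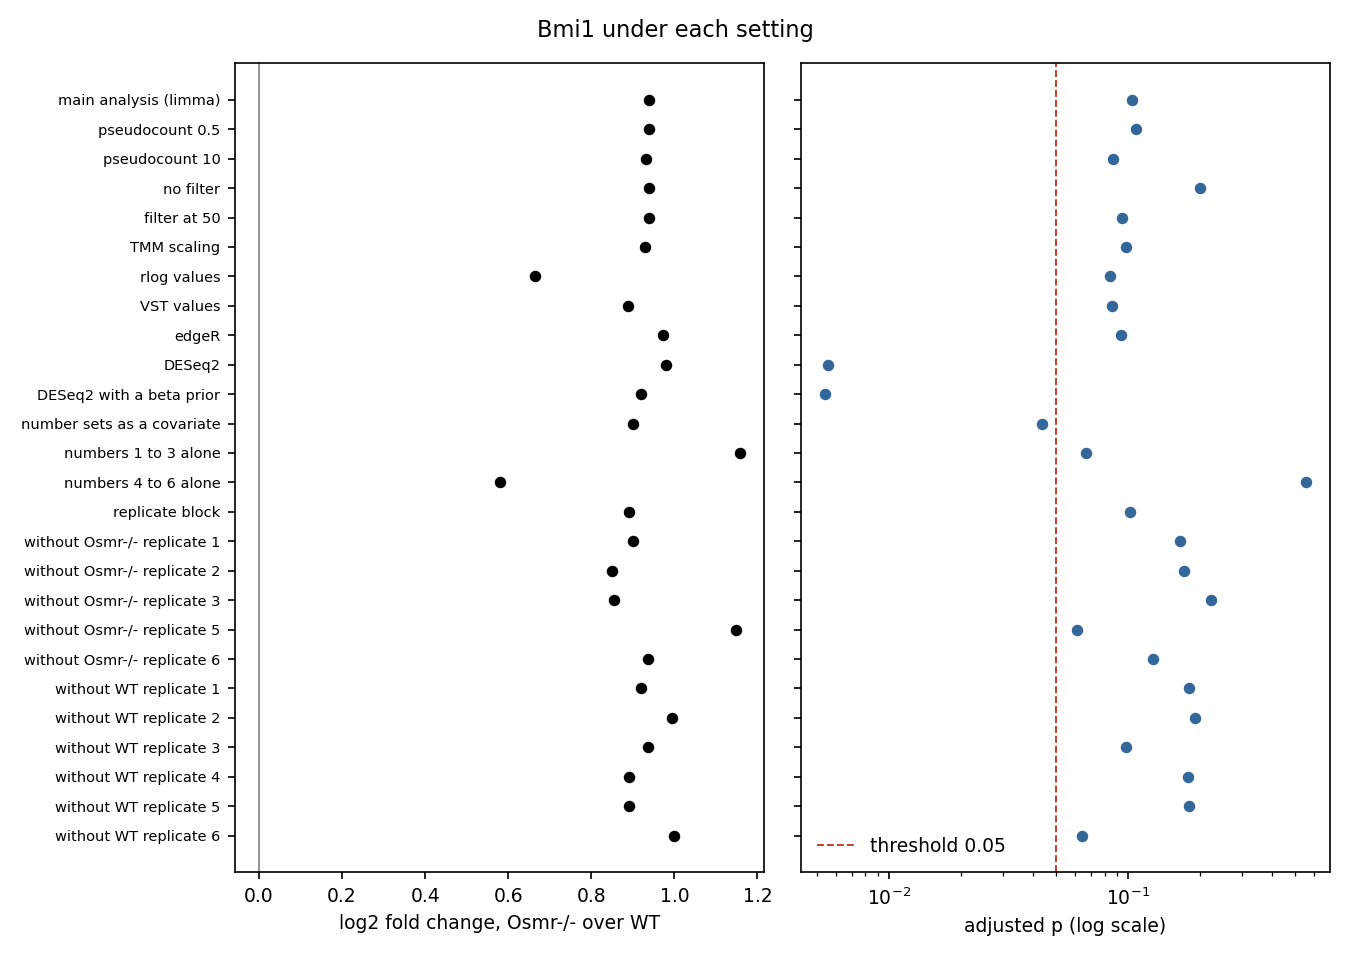
Log2 fold change of Bmi1, Osmr-/- over WT (left), and its adjusted p on a log axis (right) under each setting, with the 0.05 threshold dashed. All points on the left lie between 0.58 and 1.16, and only DESeq2, DESeq2 with a beta prior and the covariate for number sets lie below the threshold.

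The library with the lowest Bmi1 value among Osmr-/- mice, Osmr-/- 5, also had the highest sum of G2 and M phase genes and the lowest sum of S phase genes among them. The summed level of 24 genes of the G2 and M phases was 18194 normalised counts in Osmr-/- 5, 8270 to 10122 in the other Osmr-/- libraries and 15437 to 20884 in WT. Of these genes, 22 had lower means in Osmr-/- on the log scale and 14 did so at an unadjusted p under 0.05, against 10.5% of all genes tested, with a list median of -0.88. None passed limma or edgeR after adjustment, and DESeq2 called 4 lower (Ccnb2, Cenpa, Hmmr and Nuf2), where 2.76% of all genes were called lower. Cenpa, which marks centromeres, had a log2 fold change of -1.37 (limma adjusted p 0.0824), the cyclin Ccnb2 one of -1.91 (adjusted p 0.0967) and the spindle gene Hmmr one of -1.46 (adjusted p 0.104). The part of cell division in the Bmi1 values was not tested. Summed S phase genes reached 25484 normalised counts in Osmr-/- 5, 26973 to 28791 in the other Osmr-/- libraries and 24941 to 42091 in WT. Of these 28 genes 18 were below 0, limma and edgeR called 0 and DESeq2 called Rfc2 and Mcm10 lower. Rfc2 and Pold3, replication factors, had log2 fold changes of -1.12 and -1.20 (limma adjusted p 0.101 and 0.144), and Mcm10 one of -2.43 (limma adjusted p 0.114). Summed levels of erythroid transcripts separated the genotypes. The sum over 14 genes was 11411 to 18792 normalised counts in Osmr-/- and 19271 to 61925 in WT, with 54987 to 61925 in WT 1 to 3 and 19271 to 21821 in WT 4 to 6. The log2 fold changes of all 12 tested erythroid genes were below 0, with a median of -2.18, and limma called 1 lower (Rhd), edgeR 0 and DESeq2 9. No gene of the erythroid or the G2 and M phase list was at 0 in all libraries. Their part in the results on the 10 regulators was not tested.

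Commd3, a gene on the same strand that ends 786 bases before Bmi1, did not pass the test. It averaged 4342 ± 916 normalised counts in Osmr-/- and 4603 ± 1308 in WT, with a log2 fold change of -0.05 (limma adjusted p 0.930). The Cdkn2a locus, a known Bmi1 target, was at the detection limit in both genotypes. Cdkn2a had 0 reads over the Osmr-/- libraries and 1 over the WT libraries, and Cdkn2b had 0 reads in Osmr-/- and 3 in WT. No difference in these genes was detectable at this depth.

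Asxl1 (chr2:153345829-153404007, plus strand), which encodes a cofactor of the Bap1 deubiquitinase that removes the PRC1 mark, had 127, 378, 215, 132 and 330 normalised counts in Osmr-/-, and 182, 251 and 303 as the lowest, median and highest in WT. Osmr-/- 1 and 5 lay below every WT library and Osmr-/- 2 and 6 above every one. The means were 236 ± 114 in Osmr-/- and 248 ± 43.1 in WT, with a log2 fold change of -0.19 (SE 0.349, limma adjusted p 0.811). Without single libraries it ran from -0.40 without Osmr-/- 2 to -0.0062 without Osmr-/- 1, and it was -0.02 without Osmr-/- 5. The opposite-strand transcript 2500004C02Rik shares 197 exonic bases with Asxl1, and averaged 226 normalised counts in Osmr-/- and 185 in WT. On Ezh2, the opposite-strand Gm26625 shares 174 exonic bases and averaged 131 normalised counts in Osmr-/- and 74.9 in WT. The sources used here do not give the strand setting of the counting, so reads in these shared stretches are uncertain.

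For several regulators the genotype difference had opposite signs in the number sets. The nuclear RNA Malat1, named after its values were seen, did so too, with 72916 to 109658 normalised counts in Osmr-/- and 9975 to 51523 in WT among numbers 1 to 3, and 130004 to 173014 in Osmr-/- and 175463 to 230983 in WT among numbers 4 to 6. Its log2 fold change was 1.70 within numbers 1 to 3 (limma unadjusted p 0.0118, adjusted p 0.127) and -0.48 within numbers 4 to 6 (limma adjusted p 0.602), and its part in the results on the regulators was not tested. Dnmt3a was fully separate in both sets in opposite directions, with 371 to 839 normalised counts in Osmr-/- and 313 to 351 in WT among numbers 1 to 3, and 378 to 491 in Osmr-/- and 540 to 664 in WT among numbers 4 to 6. Its log2 fold change was 0.86 within numbers 1 to 3 and -0.44 within numbers 4 to 6, a difference of -1.30 (limma p 0.019, adjusted p 0.415). Ezh2 had 1157 to 1542 normalised counts in Osmr-/- and 846 to 1160 in WT among numbers 1 to 3, and 998 to 1061 in Osmr-/- and 1398 to 1747 in WT among numbers 4 to 6. The Ezh2 difference was 0.41 within numbers 1 to 3 and -0.56 within numbers 4 to 6, and the sets differed by -0.97 (limma p 0.013, adjusted p 0.380). Dnmt3a and Ezh2 were the 2 of 10 genes at an unadjusted p under 0.05 for this difference, which 9.85% of all genes tested reached, and none passed after adjustment.

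Within numbers 1 to 3 the genotypes were fully separate for 4 of 10 regulators (Dnmt3a, Tet1, Tet3 and Bmi1), and this held for 29.0% of all genes tested. Within numbers 4 to 6 it was so for 3 of 10 (Dnmt3a, Tet3 and Ezh2), and for 28.1% of all genes. Tet1 had a difference of 1.20 within numbers 1 to 3 and of 0.31 within numbers 4 to 6 (limma p of the difference 0.0764, adjusted p 0.554). Tet3 lay above WT in Osmr-/- in both sets, by 0.54 within numbers 1 to 3 and by 0.27 within numbers 4 to 6, with limma adjusted p of 0.329 and 0.769. Ezh1 had differences of -1.13 and -0.31 within the lower and upper numbers. With genotype in the model, the difference of numbers 4 to 6 minus numbers 1 to 3 was 0.78 for Tet1 (limma p 0.0089, adjusted p 0.0819) and 0.48 for Tet3 (limma p 0.0340, adjusted p 0.170). These were the 2 of 10 genes at an unadjusted p under 0.05 for the number sets, against 23.9% of all genes tested. The sets were defined from a separation in these same values, so these p-values describe it and cannot test it.

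**Figure D3:**
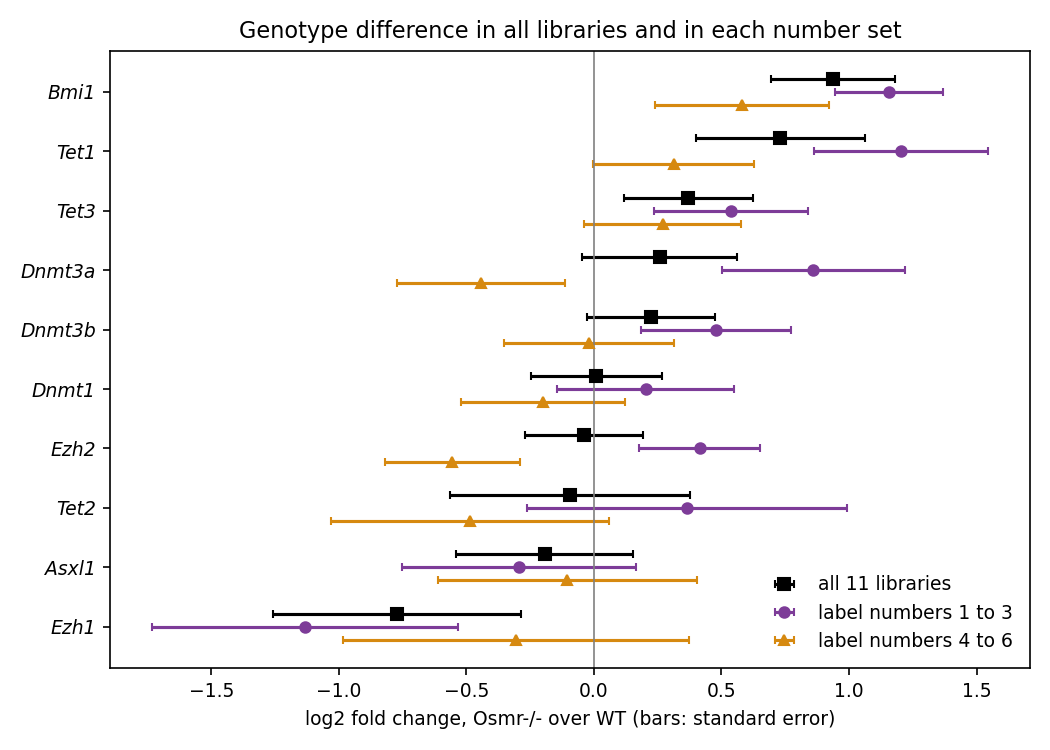
Log2 fold change, Osmr-/- over WT, with its standard error for each regulator in all 11 libraries (squares), in numbers 1 to 3 (circles) and in numbers 4 to 6 (triangles). Bmi1, Tet1 and Tet3 lie above 0 in both number sets, and Dnmt3a lies at 0.86 in numbers 1 to 3 and at -0.44 in numbers 4 to 6.

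Divided by exon length, Bmi1 was the most abundant of the 10 transcripts in both genotypes, at 407 normalised counts per kb in Osmr-/- and 206 in WT. Ezh2 followed at 178 in Osmr-/- and 186 in WT. Dnmt3b (119 in Osmr-/- and 102 in WT) and Dnmt1 (107 in Osmr-/- and 103 in WT) were close together. Tet1, Tet3, Dnmt3a, Asxl1 and Ezh1 lay between 25.5 and 48.5 normalised counts per kb in Osmr-/- and between 27.7 and 33.4 in WT. Tet2 was the lowest, at 7.31 in Osmr-/- and 8.53 in WT. In the order of levels, neighbours overlapped in their ranges over libraries except Dnmt1 and Tet1 in Osmr-/-, and Dnmt3b and Asxl1 and also Dnmt3a and Tet2 in WT. Dnmt3a was below Dnmt3b per kb in every library, with a ratio of 0.176 to 0.486 in Osmr-/- and of 0.194 to 0.298 in WT. Tet1 was above Tet2 per kb in every library, with a ratio of 4.04 to 11.1 in Osmr-/- and of 3.01 to 5.88 in WT.

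**Figure D4:**
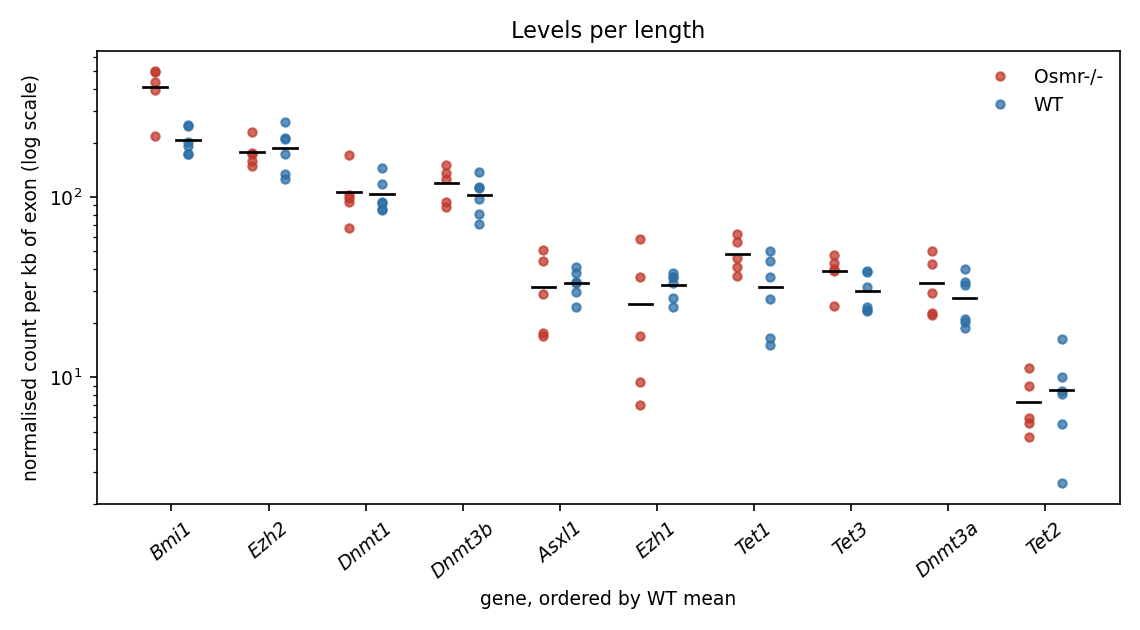
Normalised count per kb of exon (log axis) of each regulator, ordered by WT mean, in Osmr-/- libraries (red, n = 5) and WT libraries (blue, n = 6), with black lines at the means. Bmi1 has the highest mean in both genotypes, and Tet2 the lowest at 7.31 in Osmr-/- and 8.53 in WT.

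The genes most like each regulator over the 11 libraries were named by the smallest root mean square distance between centred log2 values. Closest to Bmi1 were Ccnt2, a cyclin of the transcription elongation factor P-TEFb, at a distance of 0.224, and Mex3c at 0.234. Ccnt2 had a log2 fold change of 0.82 (limma adjusted p 0.0824). Closest to Tet1 were Tmem245 at 0.189 and Ncapd3 at 0.218, and closest to Tet3 were Cand1 at 0.162 and Stat6 at 0.168. Ezh2 lay closest to Rps3a1 at 0.145, and Ezh1 to Nomo1 at 0.371, a wider distance. Among the 10 regulators, the one nearest to Bmi1 was Tet3 at 0.588, which exceeded the spread of Bmi1 itself around its mean, 0.577. These distances were taken over all 11 libraries, so differences between genotypes and between number sets enter them.

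Of 113 further genes of the same machinery in 8 lists, 109 were tested and 0 passed limma's or edgeR's test. Their log2 fold changes were above 0 for 58 and below 0 for 51, with a median of 0.08, and 20 of 109 reached an unadjusted p under 0.05 against 18.0% of all genes. In the authors' deposited table Uhrf2 was called higher and Trdmt1, Mbd3 and Cbx8 lower, 1 and 3 of 109 genes. Of all genes in that table, 1.67% were called higher and 2.79% lower. DESeq2 on the recovered reads also called 1 higher and 3 lower, of 110 genes, against 1.51% and 2.76% of all genes. With the number sets as a covariate, limma called Uhrf2 (adjusted p 0.0406) and Dpy30 (adjusted p 0.0490) higher and 0 lower. These were 2 and 0 of 109 genes, against 0.996% of all genes called higher and 1.53% called lower.

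Uhrf2, a paralog of the protein that brings Dnmt1 to replicated DNA, averaged 2213 ± 202 normalised counts in Osmr-/- and 1395 ± 243 in WT, and the genotypes did not overlap. Its log2 fold change was 0.68 (limma adjusted p 0.115). Of the 13 tested methyltransferase partners, 6 were above 0 and 7 below. Trdmt1, which methylates transfer RNA, averaged 124 ± 57.7 in Osmr-/- and 327 ± 172 in WT, with a log2 fold change of -1.32 (limma adjusted p 0.149). Hells, a chromatin remodeler that aids DNA methylation, had a log2 fold change of 0.54 (limma adjusted p 0.262). Of 8 genes listed as readers of methylated DNA, 6 were above 0, and binding to methylated DNA was not measured here. Mbd3, on that list as a subunit of the NuRD complex, averaged 133 ± 63.5 in Osmr-/- and 319 ± 86.6 in WT (log2 fold change -1.34, limma adjusted p 0.115). Zbtb33 and Mbd1 had log2 fold changes of 0.78 and 0.62 (limma adjusted p 0.260 and 0.331).

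In the demethylation list 9 of 16 tested genes were above 0. Ogt, the glycosyltransferase that binds TET proteins, had a log2 fold change of 0.49 (limma adjusted p 0.229), Gadd45a one of -1.16 (adjusted p 0.224) and Idh2, which makes the TET cofactor 2-oxoglutarate, one of -0.77 (adjusted p 0.295). Of 14 genes of the methyl donor and folate cycles, 6 were above 0. The subunits of the S-adenosylmethionine synthetase went in opposite directions, with the catalytic Mat2a at 0.39 (limma adjusted p 0.322) and the regulatory Mat2b at -0.61 (adjusted p 0.254), and the mitochondrial enzyme Shmt2 was at -0.60 (adjusted p 0.357).

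Of 11 other PRC2 genes tested, 7 were above 0 and the list median was 0.35. The core subunit Suz12 averaged 1775 ± 354 normalised counts in Osmr-/- and 1310 ± 242 in WT (log2 fold change 0.44, limma adjusted p 0.283), and the accessory subunits Aebp2 and Lcorl had log2 fold changes of 0.65 and 0.67 (adjusted p 0.228 and 0.258). Of 25 other PRC1 genes, 11 were above 0 and 14 below, with a median of -0.20. Cbx8, which reads the PRC2 mark, averaged 28.7 ± 14.7 in Osmr-/- and 111 ± 40.2 in WT, with no overlap, a log2 fold change of -1.98 and a limma adjusted p of 0.105. The authors' deposited table gives Cbx8 a log2 fold change of -1.61 at an adjusted p of 0.0015. Bcor and E2f6, which belong to variant PRC1 complexes, had log2 fold changes of 0.62 and -0.89 (limma adjusted p 0.204 and 0.223).

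Among 10 genes of the Asxl-Bap1 complex and the H3K27 demethylases, 6 were above 0. Bap1 was at -0.91 (limma adjusted p 0.273), Asxl2 at 0.46 (adjusted p 0.410) and the demethylase Kdm6a at 0.45 (adjusted p 0.340). Of 12 Trithorax genes, which encode methyltransferase complexes that oppose Polycomb, 7 were above 0 and 4 reached an unadjusted p under 0.05 as higher in Osmr-/-, against 7.50% of all genes. Dpy30, a core subunit, had a log2 fold change of 0.84 (limma adjusted p 0.149), Rbbp5 one of 0.79 (adjusted p 0.190) and Setd1b one of 1.04 (adjusted p 0.232).

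Of 19 loci known to be repressed by Polycomb or DNA methylation, 11 were tested, 5 above 0 and 6 below. None passed in limma, edgeR or DESeq2. At an unadjusted limma p under 0.05 were 4 of 11, 2 higher and 2 lower, against 18.0% of all genes tested. Cdkn1c, an imprinted cell cycle inhibitor, averaged 99.1 ± 58.3 normalised counts in Osmr-/- and 199 ± 54.1 in WT (log2 fold change -1.20, limma adjusted p 0.221). Hmga2, a chromatin protein of fetal stem cells, averaged 804 ± 135 in Osmr-/- and 542 ± 159 in WT (log2 fold change 0.60, limma adjusted p 0.232). Cdkn1a, another cell cycle inhibitor, had 0 to 107 normalised counts in Osmr-/- and 21.2 to 121 in WT, with a limma adjusted p of 0.239.

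**Figure D5:**
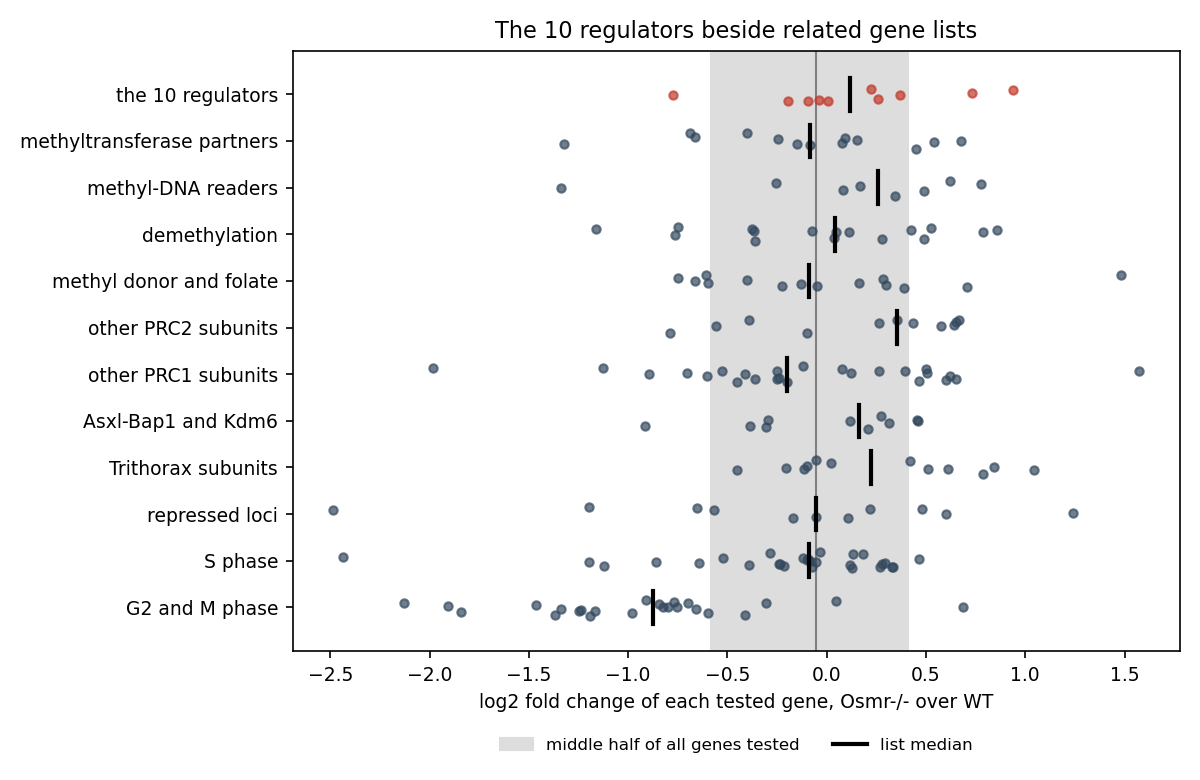
Log2 fold change, Osmr-/- over WT, of each tested gene (points) in the 10 regulators and in the related lists, with a black line at each list median. The grey band is the interquartile range and the grey line the median of all genes tested. The median of the regulators is 0.12, and that of the G2 and M phase genes is -0.88.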

How the data were processed

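The deposited files cover 11 of the 12 labelled samples. The tools in the submitters' processing notes are Trimmomatic 0.36.6, FastQC 0.72, HISAT2 2.1.0 (build mm10), HTSeq 0.9.1 and a DESeq2 wrapper, 2.11.40.6. For the annotation and the strand setting, the sources used here give nothing. The expression signal the authors deposited is the gene count divided by a DESeq2 size factor. Log2 values (rlog and VST) and a comparison table with log2 fold changes, Wald score and p-value per gene were also deposited. In that table, every gene past an adjusted p of 0.05 (615 genes) has the sign of WT minus Osmr-/-, so its fold changes are printed with the sign turned.

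Each library's signal was a whole multiple of 1 step, which gave back whole reads (largest distance 1.4e-09, 100% of values whole at a tolerance of 1e-06). Tests used limma 3.58.1 (lmFit, eBayes with trend) in R 4.3.3 on log2(normalised count + 1), with genotype alone as the term, fitted on all 13358 genes that reached 10 in 5 or more libraries, with two-sided p-values adjusted by Benjamini-Hochberg over all of them. Fold changes are differences of mean log2(value + 1), which can differ in either direction from the log2 ratio of the means where the libraries of a group spread widely, as for Ezh1 and Cdkn1a. Every adjusted p is limma's unless another source is named. The code was tested on simulated data. Alternatives were count tests on the recovered reads (edgeR 4.0.16, DESeq2 1.42.0), other pseudocounts, filters and scalings, the number sets, the label number as a block and omission of single libraries, and DESeq2 with a beta prior and the interaction with number sets were chosen after seeing the data. Exon lengths and gene positions are from GENCODE M21 (GRCm38, the mm10 assembly).

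The 10 regulators and the 18 related lists were chosen with earlier results of these data known. Named genes are all 10 regulators and, from each list other than cell type markers, the genes past the threshold or, with fewer than 3, those of lowest p up to 3. Other genes were named after their values were seen.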

Additional observations from a re-analysis of the deposited data

How the results depend on the processing

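The direction and side of the threshold were as reported in 230 of 250 alternative values of the 10 regulators. The 3 that passed the threshold were all Bmi1 (DESeq2, DESeq2 with a beta prior, and the number sets as a covariate), each of which gave 1 regulator called higher against 0 in limma. The direction turned in 17 values of 5 genes, which lay between -0.09 and 0.26 in the main comparison: Dnmt1 was -0.20 in numbers 4 to 6 and -0.18 to 0.16 with single libraries left out, Dnmt3a -0.44 and Dnmt3b -0.019 in numbers 4 to 6, Tet2 0.37 in numbers 1 to 3 and -0.39 to 0.14 with single libraries left out, and Ezh2 0.41 in numbers 1 to 3, 0.0033 under the replicate block and -0.14 to 0.067 with single libraries left out. Of 824 alternative values of the 33 other named genes, 799 were as reported, 24 passed the threshold and 1 turned, Zbtb33 at -0.11 in numbers 4 to 6. Counts over all genes moved more. Against 1 gene higher and 2 lower in Osmr-/-, pseudocount 10 gave 13 and 42, pseudocount 0.5 gave 1 lower, rlog values 18 and 51, VST values 17 and 49, DESeq2 238 and 436, the beta prior 230 and 385, the number sets as a covariate 133 and 204, and edgeR 1 lower. No filter, a filter at 50, each number set alone and the replicate block gave 0 in each direction. Leaving out single libraries gave 0 to 30 higher and 0 to 92 lower, with 30 and 92 without WT 6, 1 and 9 without Osmr-/- 5, 0 and 4 without Osmr-/- 1, 1 and 4 without Osmr-/- 6, 0 and 1 without Osmr-/- 3, 1 and 0 without WT 1, and 0 and 0 without Osmr-/- 2 or WT 2, 3, 4 or 5. The cause was not tested. Same-numbered libraries of the genotypes correlated at 0.020 to 0.099 over 5 pairs, under the 0.1 set for pairing, so the main test did not pair them. Osmr-/- 1, 2, 3, 5 and 6 did not all correlate best with their own number. Pairs across genotypes ran from -0.031 to 0.138 within a number set and from -0.193 to 0.044 between sets. Whether same-numbered libraries share more than a number was not tested. Depth limits what can be said of Osmr, Cdkn2a and Cdkn2b, and counting error alone is covered by their read totals.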
